A study of Mus musculus with 16 samples.

Results

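The genes described here encode the exocytosis machinery of secretory granules: SNARE proteins and their regulators, synaptotagmins, the small GTPases Rab3 and Rab27 with their effectors, priming factors, complexins and the factors that recycle SNAREs. They were chosen from a list of 48 mouse gene symbols, and all 48 were found by their Ensembl identifiers among the 52636 genes of the count table. Their RNA was measured by single-end RNA-seq in whole pancreatic islets of male mice aged 12 weeks, strain C57BL/6JRj in the labels, each library made from 500 islets pooled over several mice. Islets were cultured for 10 days in medium with 2% human serum and were left unexposed (control), or received recombinant mouse IL-1β at 50 pg/mL, sodium butyrate at 0.2 mM, or both together, with 4 libraries per condition and 16 in all. The study's methods name the substrain C57BL/6NRj instead and call the replicates independent experiments. Islets are mixtures of endocrine and other cells, so fewer cells of a type and less RNA per cell cannot be told apart in any value below.

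Insulin granules fuse with the plasma membrane when a vesicle SNARE (VAMP) pairs with syntaxin and a SNAP protein on the target membrane. Munc18 proteins hold and guide syntaxin, tomosyns occupy the SNAREs and inhibit fusion, and priming factors of the Munc13, CAPS and RIM families make docked granules ready for release. Several synaptotagmins and Doc2b sense calcium, Rab3 and Rab27 with their effectors bring granules to the membrane, and NSF with alpha-SNAP takes spent SNARE complexes apart. IL-1β is a cytokine that disturbs beta cell secretion. Butyrate, which gut bacteria make from fibre, inhibits histone deacetylases.

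Library totals ran from 18635943 to 25955943 counts, with a median of 22184715. The islet identity was plain in every library: 8 beta cell markers summed to between 213491 and 236289 CPM (read counts scaled by library size and TMM factor) in control islets and between 136869 and 178429 CPM with IL-1β. With butyrate this sum was 221674 to 261225 CPM, and with both agents 137267 to 169347 CPM. Glucagon and the other 4 alpha cell markers summed to 21074 to 24229 CPM in control islets and 20242 to 25763 CPM with IL-1β. With butyrate the alpha sum was 18678 to 22097 CPM, and with both agents 24872 to 27883 CPM. *Ppy*, the marker of PP cells, was at 1374 to 2053 CPM in control islets and 1015 to 1412 CPM with IL-1β. It was at 2207 to 2753 CPM with butyrate and 1354 to 1887 CPM with both. By contrast 7 acinar markers summed to at most 30.3 CPM, and *Amy2a5* was at 0 in 3 of the 4 conditions. The sum of 3 delta cell markers was 1689 to 1989 CPM in control islets, 1739 to 2216 CPM with IL-1β, 2389 to 2769 CPM with butyrate and 2622 to 3184 CPM with both. A list of 5 macrophage and leukocyte markers summed to 13.5 to 23.1 CPM in control islets, 64.1 to 112 CPM with IL-1β, 11.5 to 20.1 CPM with butyrate and 28.8 to 62.0 CPM with both. Single markers did not all follow the sums. In the tests described below, 0 of the 5 alpha markers were raised and 3 were lowered with both agents against control. With butyrate against control 1 of the 3 delta markers was raised. With IL-1β against control 7 of the 8 beta markers were lowered and 1 was raised, and all 5 macrophage and leukocyte markers were raised. The part of these marker shifts in the results below was not tested.

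The stretch just before the transcription start is shown for the 5 exocytosis genes that moved furthest or most steadily, because it shows how unlike their promoters are in sequence. RefSeq sequences on GRCm38.p6 were matched for 36 of the 48 genes, with 41 starts, and the 250 bases before the start are given 5′ to 3′ on the gene's strand. No window was matched for *Doc2b*, *Rab27b*, *Rims2*, *Snap25*, *Syt4*, *Syt5*, *Syt7*, *Syt12*, *Syt13*, *Syt17*, *Vamp2* and *Vamp3*. Capitals mark GGGCGG or its reverse complement CCGCCC, the core of a GC box.
*Cadps2*, chr6:23839422-23839671, minus strand: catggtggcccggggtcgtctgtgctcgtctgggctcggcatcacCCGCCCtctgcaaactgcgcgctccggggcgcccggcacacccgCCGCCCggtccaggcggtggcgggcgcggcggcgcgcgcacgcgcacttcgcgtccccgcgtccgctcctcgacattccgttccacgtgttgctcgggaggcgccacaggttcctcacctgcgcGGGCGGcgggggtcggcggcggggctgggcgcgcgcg
*Stx1a*, chr5:135023232-135023481, plus strand: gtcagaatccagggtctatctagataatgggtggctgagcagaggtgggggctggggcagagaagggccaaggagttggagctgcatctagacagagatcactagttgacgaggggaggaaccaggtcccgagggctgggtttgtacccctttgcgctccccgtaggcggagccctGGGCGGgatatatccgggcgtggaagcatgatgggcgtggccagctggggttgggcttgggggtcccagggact
*Syt11*, chr3:88772600-88772849, minus strand: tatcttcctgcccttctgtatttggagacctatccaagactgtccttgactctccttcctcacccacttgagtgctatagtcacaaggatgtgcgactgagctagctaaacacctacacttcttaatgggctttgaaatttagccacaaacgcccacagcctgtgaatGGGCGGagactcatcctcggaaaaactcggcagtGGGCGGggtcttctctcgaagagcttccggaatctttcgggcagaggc
*Esyt3*, chr9:99358531-99358780, minus strand: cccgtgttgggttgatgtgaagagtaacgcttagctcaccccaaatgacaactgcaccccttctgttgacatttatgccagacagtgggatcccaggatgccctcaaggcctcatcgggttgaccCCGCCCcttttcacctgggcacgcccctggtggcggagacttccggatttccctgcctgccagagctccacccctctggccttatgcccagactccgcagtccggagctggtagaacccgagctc
*Sytl4*, chrX:133981813-133982062, minus strand: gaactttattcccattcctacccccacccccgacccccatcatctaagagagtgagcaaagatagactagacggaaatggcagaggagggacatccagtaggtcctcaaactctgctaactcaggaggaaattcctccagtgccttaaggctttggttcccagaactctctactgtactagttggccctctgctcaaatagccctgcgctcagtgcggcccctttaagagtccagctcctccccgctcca

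The *Cadps2* window is 78.0% G or C with 44 CpG and 3 GC boxes, that of *Stx1a* is 62.0% with 1 box, that of *Esyt3* 60.0% with 1, and that of *Syt11* 51.2% with 2. The *Sytl4* window is 53.2% G or C and holds none. Searched on both strands, GGGCGG was present in 27 of the 41 starts of exocytosis genes (65.9%) and in 32.7% of all 32851 windows of this length. The median G or C content was 60.4% against 52.4% over all windows. CCAAT was present in 13 starts (31.7%, against 33.8% of all), TATAAA in 3 (7.32%, against 12.4%), the cyclic AMP element TGACGTCA in 1 (2.44%, against 1.55%) and the NF-kappaB consensus in 3 (7.32%, against 7.25%). These are matches of letters in a short window and say nothing of binding.

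Levels between genes are compared as CPM per kb of merged exon. In control islets *Syt13*, a synaptotagmin without calcium binding, stood highest at 357 ± 18.6 CPM per kb (SD, n = 4) and made up 66.0% of the summed level of the 12 synaptotagmins. The next was *Rab3d* at 86.5 ± 1.01, and its libraries lay apart from those of *Cplx2* below it. The order depends on the length used. Per kb of the longest transcript, the control mean was 113 for *Napa* and 112 for *Vamp2*, above 93.4 for *Rab3d*. From *Cplx2* (77.1 ± 4.32) through *Napa* (75.4 ± 1.78), *Rab27a* (74.7 ± 2.88), *Sytl4* (72.1 ± 7.1), *Syt4* (69.4 ± 2.46), *Rab3a* (65.7 ± 4.52) and *Vamp2* (64.7 ± 3), each gene overlapped with its neighbour in the order. *Syt7*, the main high-affinity calcium sensor of insulin release, followed at 44.6 ± 0.762 and *Snap25* at 30.7 ± 1.74. *Stx1a*, the plasma membrane syntaxin of fast release, was at 4.71 ± 0.339 CPM per kb, below *Stx4a* at 14.3 ± 0.744. At the low end *Rab27b* (0.189 ± 0.0343), *Syt12* (0.157 ± 0.0081) and *Cplx1* (0.115 ± 0.0572) overlapped with each other in order.

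Within families the level was uneven. *Rab27a* carried 99.7% of the Rab27 level and *Cplx2* 99.8% of the complexin level in control islets, while *Snap25* carried 71.8% of the SNAP-25 and SNAP-23 sum and *Rab3d* with *Rab3a* carried 52.9% and 40.1% of the Rab3 sum. These leading positions were the same in all 4 conditions, as the plot of levels per length shows. Per kb of the longest transcript, *Rab3a* (94.0) and *Rab3d* (93.4) were about level in control islets.

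**Figure D1:**
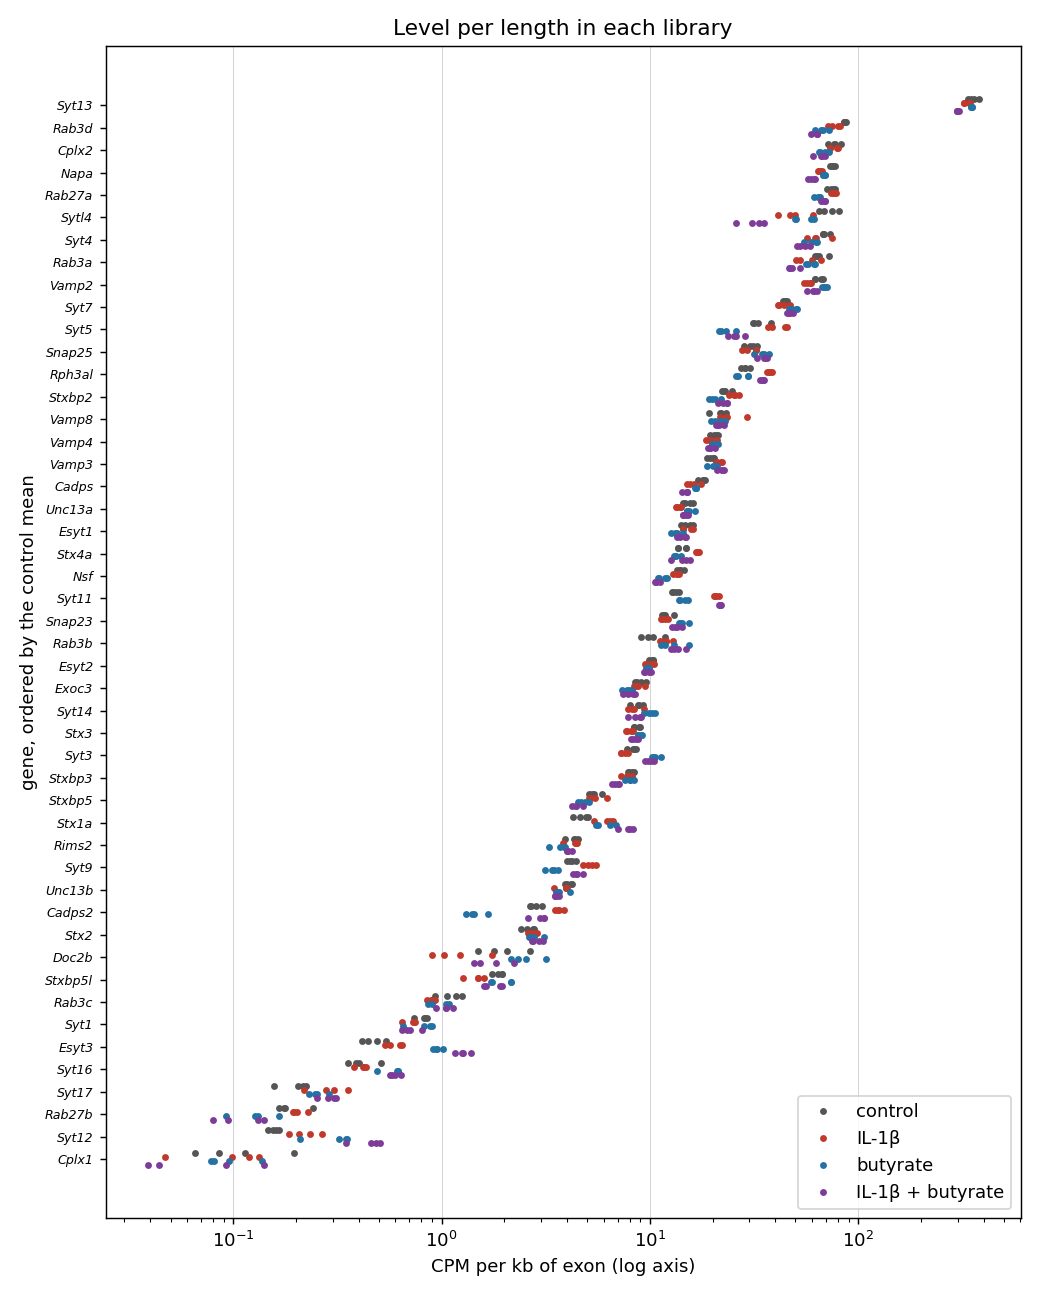
CPM per kb of merged exon (log axis) of the 48 exocytosis genes in each of the 16 libraries, ordered by the control mean, with points coloured by condition. *Syt13* stands alone at the top (357 CPM per kb in control), most genes fall between 1 and 100, and the coloured points of *Sytl4*, *Syt11*, *Cadps2*, *Esyt3* and *Syt12* separate most.

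Differential expression was tested over all 18587 genes that passed the filter on low counts, of which 47 are exocytosis genes; *Cplx1*, with 2 to 10 counts per library, was not tested. A gene was called at an adjusted p (Benjamini-Hochberg, edgeR quasi-likelihood test) under 0.01, the study's threshold. With IL-1β against control, 7 exocytosis genes rose and 4 fell, so 23.4% were called where 17.8% of all tested genes were (11.2% raised, 6.59% lowered). With butyrate against control, 8 rose and 9 fell (36.2% called), where 19.9% of all genes were called (8.53% raised, 11.4% lowered). When butyrate was added to IL-1β, 7 rose and 12 fell against IL-1β alone (40.4% called), where 19.5% of all genes were called (8.41% raised, 11.1% lowered). With both agents against control, 10 rose and 14 fell (51.1% called), where 30.6% of all genes were called (15.8% raised, 14.8% lowered). In all, 35 of the 47 genes were called in at least 1 of these or in the test of the difference between the butyrate effects, and 12 in none, among them *Syt7*, *Unc13a*, *Doc2b* and *Stx3*. The share of all genes was not computed for this count, so the 35 are not read as an excess. With the replicate number as a block, 29 calls of exocytosis genes were added over all comparisons and 0 ended. Calls of *Syt7*, *Unc13a*, *Doc2b*, *Rab3c* and *Esyt1* were among those added. The share of all genes added by the block is not given here, so the 29 are not read as particular to exocytosis genes. Unless the block is named, called and not called refer below to the fit without it.

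The higher shares stand beside higher levels: the median exocytosis gene had 62.8 CPM in control islets against 9.45 CPM for all tested genes, and the median SE of its log2 fold change was 0.056 against 0.099 for IL-1β against control. The median log2 fold change of the 47 genes was -0.03, -0.03, -0.07 and -0.07 in the 4 comparisons, in the order given, against -0.03, 0.01, 0.01 and -0.0027 over all genes. The split between raised and lowered genes moved with the scaling of the libraries. With upper-quartile scaling they were 7 raised and 11 lowered for IL-1β, 11 and 6 for butyrate, 9 and 9 for butyrate added to IL-1β, and 11 and 15 for both against control. With library size alone they were 10 and 2, 8 and 13, 6 and 14, and 11 and 12. The split over all genes moved as well. Of all called genes, 63.0%, 42.9%, 43.1% and 51.6% were raised in the 4 comparisons, in the same order. With upper-quartile scaling these shares were 51.5%, 58.5%, 57.7% and 54.4%. With library size alone they were 79.8%, 35.1%, 44.8% and 66.9%. In the count of genes lowered by IL-1β single libraries also weighed: the 4 became 1 without IL-1β replicate 2, 2 without control replicate 2, control replicate 3 or IL-1β replicate 3, and 7 without IL-1β replicate 1. The 8 raised by butyrate became 5 without control replicate 4, and the 7 raised by butyrate on top of IL-1β became 4 without replicate 1 of the combination.

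**Figure D2:**
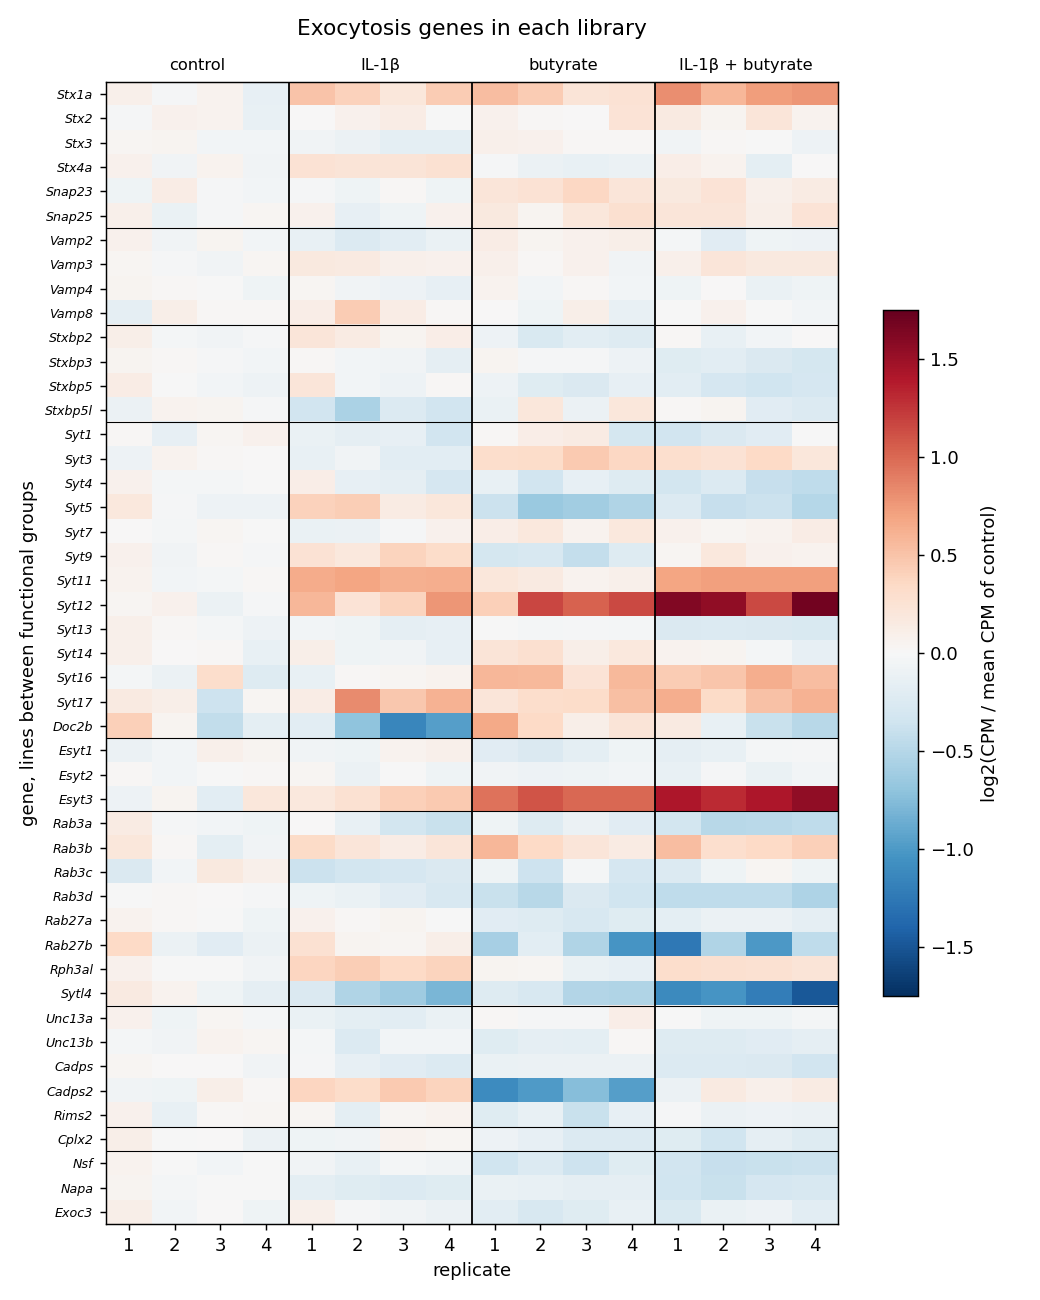
Log2 of CPM over the mean CPM of the 4 control libraries for the 47 tested exocytosis genes (rows, lines between functional groups) in each of 16 libraries (columns by condition and replicate). Most rows stay pale, while *Stx1a*, *Syt11*, *Syt12*, *Esyt3*, *Sytl4* and *Cadps2* show blocks of colour shared by the 4 libraries of a condition.

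Among the target-membrane SNAREs, *Stx1a* rose in every comparison. It measured 13.4, 12.3, 13.1 and 11.4 CPM in control islets, 17.8, 16.6, 14.4 and 17.1 with IL-1β, 18.3, 17.1, 14.6 and 15 with butyrate and 22, 18.7, 20.9 and 21.4 with both. Every exposed library lay above all control libraries, and the libraries with both agents lay above those with either agent alone. The log2 fold change was 0.39 with IL-1β (SE 0.082, adjusted p = 0.000537), 0.37 with butyrate (SE 0.082, adjusted p = 0.000961), 0.33 for butyrate added to IL-1β (SE 0.078, adjusted p = 0.00165) and 0.73 for both against control (SE 0.080, adjusted p = 2.89e-08). The third of these calls was lost without IL-1β replicate 3 (adjusted p = 0.0145) or without replicate 1 of the combination (0.0115). Its share of the summed level per kb of the 4 syntaxins went from 15.6% ± 0.516 in control islets to 18.3% ± 1.2 with IL-1β, 19.5% ± 1.34 with butyrate and 23.3% ± 1.54 with both (SD, n = 4).

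*Snap25*, the neuronal-type partner of syntaxin 1, measured 221, 193, 206 and 213 CPM in control islets, 221, 188, 198 and 219 with IL-1β, 235, 215, 239 and 254 with butyrate and 241, 242, 223 and 247 with both. The libraries with both agents lay just above all control and all IL-1β libraries, and those with butyrate alone overlapped with control. Its log2 fold change was 0.21 (SE 0.057, adjusted p = 0.00665) for butyrate added to IL-1β and 0.19 (SE 0.057, adjusted p = 0.00755) for both agents against control, while butyrate alone gave 0.18 (SE 0.057, adjusted p = 0.019). That last value passed with upper-quartile scaling (adjusted p = 0.00287), when only the 2 conditions were fitted (0.00699) and without butyrate replicate 2 (0.00748). The call for butyrate added to IL-1β was lost without IL-1β replicate 2 or 3 or replicate 1, 2 or 4 of the combination (adjusted p up to 0.0383). It was also lost with scaling by library size alone (0.0122). The call for both against control was lost without control replicate 2, 3 or 4, butyrate replicate 1 or replicate 1, 2 or 4 of the combination (up to 0.0459). *Snap23*, the widely expressed relative of SNAP-25, rose with butyrate in both settings, from 49.0 to 56.2 CPM in control islets to 59.5 to 65.9 CPM with butyrate (log2 fold change 0.26, SE 0.051, adjusted p = 0.000308), and from 48.7 to 52.4 CPM with IL-1β to 55.0 to 61.1 CPM with both (log2 fold change 0.20, SE 0.051, adjusted p = 0.00308). That last call was lost without IL-1β replicate 4 or replicate 1, 2 or 4 of the combination (up to 0.0258).

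*Stx4a*, a syntaxin used by granules that fuse without prior docking, rose with IL-1β from 32.2 to 35.4 CPM to 39.3 to 40.6 CPM (log2 fold change 0.25, SE 0.056, adjusted p = 0.00129). When butyrate was added it was lower again, at 29.8 to 36.7 CPM (log2 fold change -0.24, SE 0.056, adjusted p = 0.00168). *Stx2* and *Stx3*, the remaining syntaxins of the plasma membrane, were not called in any comparison.

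The vesicle SNARE of insulin granules, *Vamp2*, measured 259, 236, 254 and 238 CPM in control islets, 225, 209, 217 and 227 with IL-1β, 269, 255, 261 and 264 with butyrate and 241, 215, 234 and 232 with both. All IL-1β libraries lay below all control libraries (log2 fold change -0.17, SE 0.046, adjusted p = 0.00724), and the butyrate libraries overlapped with the highest control library, without a call (log2 fold change 0.09, SE 0.046, adjusted p = 0.153). The IL-1β call was lost without control replicate 1 or 3, IL-1β replicate 1, 2 or 3, or replicate 1, 3 or 4 of the combination (adjusted p up to 0.0348), and reached 0.138 with scaling by library size alone. It was also lost without the filter on low counts (0.0227) and when only the conditions compared were fitted (0.0213). *Vamp3*, or cellubrevin, was higher with both agents than in control islets (log2 fold change 0.16, SE 0.046, adjusted p = 0.00617), a call lost without control replicate 2 or 3 or replicate 2, 3 or 4 of the combination (up to 0.034). The *Vamp3* call was also lost without the filter on low counts (0.0184). *Vamp4*, of the trans-Golgi network, and *Vamp8*, an endosomal VAMP, were not called.

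Each of the 4 Munc18 and tomosyn genes was called in at least 1 comparison. *Stxbp5l*, or tomosyn-2, an inhibitor of SNARE assembly, measured 14.9, 16.7, 16.6 and 15.8 CPM in control islets, 12.7, 10.9, 13.6 and 12.7 with IL-1β, 14.8, 18.4, 14.9 and 18.3 with butyrate and 16.2, 16.6, 13.9 and 13.6 with both. All 4 IL-1β libraries lay below all control libraries (log2 fold change -0.36, SE 0.087, adjusted p = 0.00244), and those with both agents met the highest IL-1β library, without a call (log2 fold change 0.28, SE 0.088, adjusted p = 0.0175), though this value passed with upper-quartile scaling (adjusted p = 0.00752) and without the filter on low counts (0.0069). The *Stxbp5l* value for butyrate added to IL-1β also passed with the replicate number as a block (adjusted p = 0.00846). The IL-1β call was lost without control replicate 2 (adjusted p = 0.0102), without IL-1β replicate 2 (0.014) and with library-size scaling (0.0214). Its relative *Stxbp5*, or tomosyn-1, was at 84.0 to 103 CPM with IL-1β against 84.1 to 97.3 CPM in control (log2 fold change 0.03, SE 0.058, adjusted p = 0.799), and it was lower when butyrate was added, at 70.2 to 78.9 CPM (log2 fold change -0.30, SE 0.059, adjusted p = 0.000295). *Stxbp3*, or Munc18-3, a partner of syntaxin 4, was lower with both agents (35.0 to 38.0 CPM) than with IL-1β (38.9 to 44.1 CPM, log2 fold change -0.18, SE 0.050, adjusted p = 0.00823) or in control islets (42.0 to 44.9 CPM, log2 fold change -0.24, SE 0.049, adjusted p = 0.000291). The first of these *Stxbp3* calls was lost under 12 of 23 alternatives (adjusted p up to 0.0284), among them leaving out control replicate 2, 3 or 4, IL-1β replicate 1 or 2, butyrate replicate 2 or 3, or replicate 3 or 4 of the combination. *Stxbp2*, or Munc18-2, fell with butyrate alone (log2 fold change -0.19, SE 0.051, adjusted p = 0.00508), a call lost without control replicate 1 or butyrate replicate 2, 3 or 4 (up to 0.0283). The *Stxbp2* call was also lost with upper-quartile scaling (0.0239).

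*Syt11*, a synaptotagmin that does not bind calcium, was the exocytosis gene with the smallest p for IL-1β. It measured 71.9, 66.5, 67 and 69.8 CPM in control islets, 108, 111, 106 and 107 with IL-1β, 79.3, 76.4, 72.1 and 72.9 with butyrate and 112, 114, 113 and 113 with both. The libraries with IL-1β, with or without butyrate, lay far above the others, and the 2 sets without IL-1β barely separated. IL-1β gave a log2 fold change of 0.65 (SE 0.043, adjusted p = 2.76e-12) and both agents against control gave 0.71 (SE 0.043, adjusted p = 2.31e-13), which is a 1.57-fold and a 1.64-fold level, while butyrate alone gave 0.13 (SE 0.044, adjusted p = 0.0279), which passed with upper-quartile scaling (adjusted p = 0.00115). Both calls stood under all 23 alternatives.

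*Syt5* and *Syt9*, calcium-binding synaptotagmins of dense-core granules whose names are exchanged in some of the literature, moved up with IL-1β and down with butyrate. *Syt5* measured 91, 78.5, 74.8 and 75.2 CPM in control islets, 106, 108, 87.8 and 91.6 with IL-1β, 61.4, 50.9, 52.5 and 55.3 with butyrate and 67.9, 60.2, 61.4 and 56.5 with both. The butyrate libraries lay below all control libraries, and the IL-1β libraries overlapped with the highest control library. The log2 fold change of *Syt5* was 0.30 (SE 0.078, adjusted p = 0.00641) for IL-1β, -0.54 (SE 0.080, adjusted p = 3.23e-05) for butyrate, -0.68 (SE 0.079, adjusted p = 1.97e-06) for butyrate added to IL-1β and -0.38 (SE 0.079, adjusted p = 0.000658) for both against control. Of these calls only that for IL-1β was lost with a library left out, namely control replicate 2, 3 or 4 or IL-1β replicate 1 or 2 (adjusted p up to 0.0327).

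*Syt9* measured 17.6, 16, 16.9 and 16.4 CPM in control islets, 20, 19, 21.9 and 21 with IL-1β, 13.6, 13.7, 12.5 and 14.4 with butyrate and 17.1, 19, 17.7 and 17.5 with both. The 3 levels did not overlap: butyrate lay lowest, control above it and IL-1β highest, and the combination lay between control and IL-1β, overlapping control and ending just below the lowest IL-1β library. In *Syt9* the log2 fold change was 0.29 (SE 0.063, adjusted p = 0.000706) for IL-1β, -0.30 (SE 0.066, adjusted p = 0.000817) for butyrate, -0.20 (SE 0.062, adjusted p = 0.0147) for butyrate added to IL-1β and 0.09 (SE 0.063, adjusted p = 0.277) for both against control. Of these, the first 2 were called, and the third passed without IL-1β replicate 2 (adjusted p = 0.00706) or replicate 2 of the combination (0.00603). The third also passed with the replicate number as a block (0.00861).

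*Syt12* and *Syt16*, both without calcium binding, rose with butyrate from low levels. *Syt12* measured 0.887, 0.917, 0.812 and 0.856 CPM in control islets, 1.29, 1.02, 1.14 and 1.48 with IL-1β, 1.16, 1.95, 1.78 and 1.94 with butyrate and 2.68, 2.55, 1.93 and 2.79 with both, from 17 to 66 counts per library. Every butyrate library lay above every control library, and every library with both agents above every IL-1β library. Its log2 fold change was 0.98 (SE 0.21, adjusted p = 0.000833) for butyrate, 0.99 (SE 0.19, adjusted p = 0.000218) for butyrate added to IL-1β and 1.51 (SE 0.20, adjusted p = 6.88e-07) for both against control, a 2.85-fold level, while IL-1β gave 0.52 (SE 0.22, adjusted p = 0.0905). Of its exon bases 17.2% overlap with *A930001C03Rik* on the other strand, which had 3 to 9 counts in control islets, 11 to 17 with IL-1β, 2 to 4 with butyrate and 8 to 10 with both.

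*Syt16* measured 3.69, 3.54, 4.68 and 3.25 CPM in control islets, 3.46, 3.85, 3.89 and 3.97 with IL-1β, 5.68, 5.6, 4.49 and 5.63 with butyrate and 5.16, 5.31, 5.87 and 5.49 with both. Butyrate replicate 3 fell just below the highest control library, and the other 3 lay above all controls. For *Syt16* the log2 fold change was 0.50 (SE 0.12, adjusted p = 0.00165) for butyrate, 0.52 (SE 0.12, adjusted p = 0.00123) for butyrate added to IL-1β and 0.53 (SE 0.12, adjusted p = 0.000567) for both against control, and the first call was narrowly lost without control replicate 4 (adjusted p = 0.0105).

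*Syt3*, a calcium-binding synaptotagmin, rose with butyrate without overlap between libraries, from 24.2 to 26.9 CPM to 32.0 to 35.3 CPM (log2 fold change 0.36, SE 0.053, adjusted p = 7.37e-06), and from 22.6 to 24.6 CPM with IL-1β to 29.7 to 32.8 CPM with both (log2 fold change 0.42, SE 0.054, adjusted p = 1.21e-06). *Syt4*, a calcium-independent synaptotagmin of dense-core granules, went the other way and was lowest with both agents, at 199 to 229 CPM against 264 to 284 CPM in control (log2 fold change -0.35, SE 0.066, adjusted p = 0.00012). Its fall from IL-1β alone (log2 fold change -0.24, SE 0.066, adjusted p = 0.00744) was lost without IL-1β replicate 1 or 2, butyrate replicate 4 or replicate 3 or 4 of the combination (adjusted p up to 0.0183). That call was also lost with upper-quartile scaling (0.0149) and when only the conditions compared were fitted (0.0215). *Syt13*, the most abundant of the family, fell with both agents against control, from 1265 to 1429 CPM to 1121 to 1142 CPM (log2 fold change -0.25, SE 0.044, adjusted p = 3.94e-05). *Syt14* rose with butyrate alone (log2 fold change 0.20, SE 0.057, adjusted p = 0.00816), a call lost with DESeq2 (adjusted p = 0.011) and without control replicate 2, 3 or 4 or butyrate replicate 1, 2 or 4 (up to 0.05).

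*Syt7* measured 334, 327, 341 and 333 CPM in control islets, 308, 311, 329 and 351 with IL-1β, 362, 378, 349.9 and 381 with butyrate and 351, 343, 347 and 365 with both. The IL-1β libraries spread on both sides of control, and the butyrate libraries lay above all control libraries. No comparison was called: the log2 fold change was -0.04 (SE 0.046, adjusted p = 0.579) for IL-1β and 0.14 (SE 0.046, adjusted p = 0.0221) for butyrate, with a 95% interval of 0.05 to 0.23 for the latter. Butyrate did pass with upper-quartile scaling (adjusted p = 0.00316), with DESeq2 (0.00862) and when only the 2 conditions were fitted (0.00564). It also passed with the replicate number as a block (0.00469). *Doc2b*, a high-affinity calcium sensor, had the lowest log2 fold change of all 47 genes for IL-1β but a wide spread: 11.6, 9.01, 6.5 and 7.75 CPM in control islets, 7.65, 5.36, 3.94 and 4.47 with IL-1β, 13.8, 11.1, 9.35 and 10.2 with butyrate and 9.71, 7.98, 6.66 and 6.21 with both. The IL-1β libraries overlapped with control, and no call was made (log2 fold change -0.72, SE 0.23, adjusted p = 0.0318, 95% interval -1.21 to -0.22). Each IL-1β library did lie below the control library of the same replicate number. With that number as a block the *Doc2b* value for IL-1β was -0.71 (SE 0.091) and was called (adjusted p = 4.04e-08). *Syt1*, the fast sensor of neurons, and *Syt17* were not called either.

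**Figure D3:**
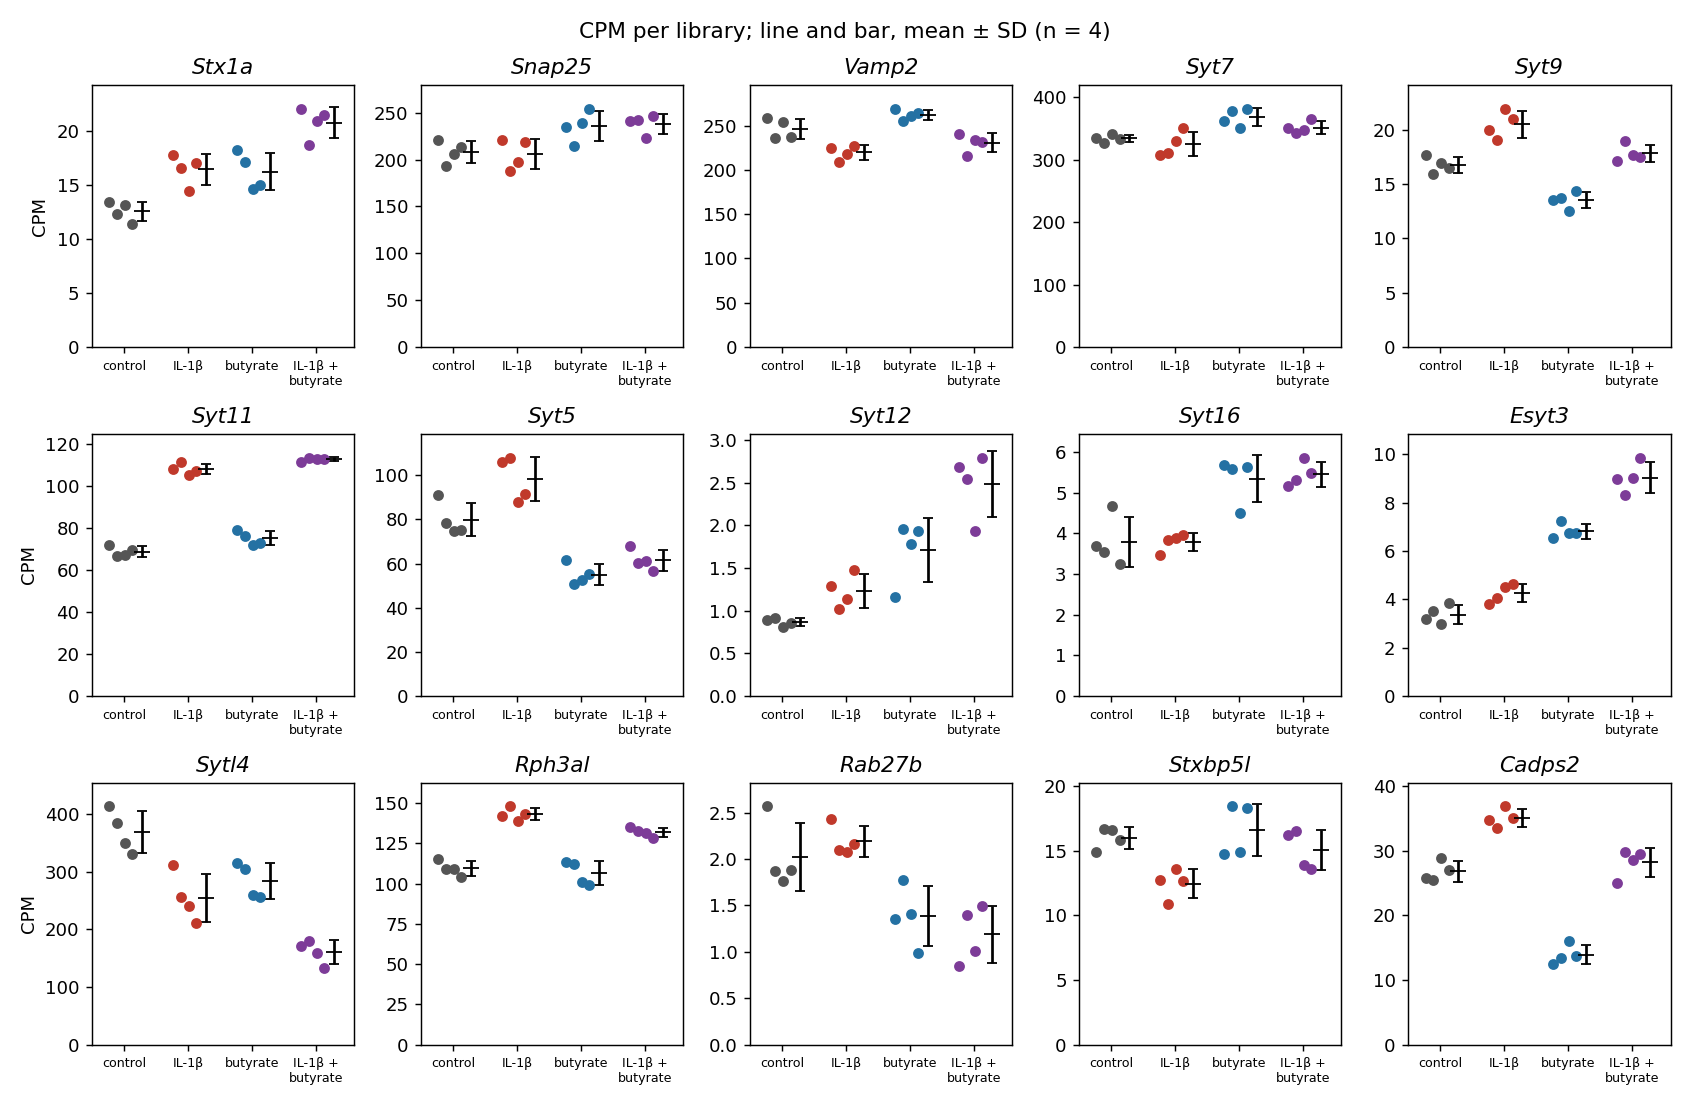
CPM (vertical axes, from 0) of 15 exocytosis genes in each library, 4 points per condition, with the mean and SD beside them. *Syt11* and *Rph3al* are high in both conditions with IL-1β, *Esyt3* and *Syt12* climb from control to the combination, *Sytl4* descends, and *Cadps2* is low in the butyrate libraries alone (12.5 to 16 CPM).

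Of the extended synaptotagmins, which tether the endoplasmic reticulum to the plasma membrane rather than granules, only *Esyt3* was called. It measured 3.17, 3.5, 2.96 and 3.85 CPM in control islets, 3.83, 4.04, 4.51 and 4.62 with IL-1β, 6.53, 7.24, 6.74 and 6.75 with butyrate and 8.97, 8.32, 9.02 and 9.87 with both. The butyrate libraries lay above all control libraries and the combination above all others. The log2 fold change was 1.01 (SE 0.11, adjusted p = 3.58e-08) for butyrate, 1.08 (SE 0.098, adjusted p = 3.90e-09) for butyrate added to IL-1β and 1.42 (SE 0.10, adjusted p = 8.37e-12) for both against control, a 2.67-fold level, and all 3 calls stood under all 23 alternatives. IL-1β alone gave 0.33 (SE 0.11, adjusted p = 0.0264). *Esyt3* was a low gene, with 62 to 221 counts per library, and 6.85% of its exon bases overlap with *Gm37249* on the other strand, which had 52 to 64 counts in control islets and 40 to 56 with butyrate. *Esyt1* and *Esyt2*, at 85.6 CPM or more in all 16 libraries, were not called.

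The Rab GTPases and their effectors held the strongest fall. *Sytl4* encodes granuphilin, the Rab27 effector that docks insulin granules at the membrane, and measured 413, 384, 349.7 and 331 CPM in control islets, 311, 256, 241 and 211 with IL-1β, 315, 305, 259 and 256 with butyrate and 171, 180.2, 159 and 133 with both. All IL-1β libraries and all butyrate libraries lay below all control libraries, and all libraries with both agents lay below every other library. This came to a log2 fold change of -0.54 (SE 0.13, adjusted p = 0.00546) for IL-1β, -0.66 (SE 0.13, adjusted p = 0.0013) for butyrate added to IL-1β and -1.20 (SE 0.13, adjusted p = 3.59e-06) for both against control, which left 0.435 of the control level. Butyrate alone missed the threshold (log2 fold change -0.38, SE 0.12, adjusted p = 0.0343). The IL-1β call was lost without control replicate 1, 2 or 3 or IL-1β replicate 2, 3 or 4 and without the filter on low counts (adjusted p up to 0.0202), while the other 2 calls stood under all 23 alternatives. The butyrate value passed with library-size scaling (adjusted p = 0.00744). It also passed with the replicate number as a block (log2 fold change -0.38, SE 0.044, adjusted p = 7.68e-09). The sum of beta cell markers was also lower in both conditions with IL-1β, though not with butyrate alone, and the part of the cell makeup in the *Sytl4* values was not tested.

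*Rph3al*, or Noc2, an effector of Rab3 and Rab27 on granules, moved opposite to *Sytl4* with IL-1β. It measured 115, 109, 109 and 104 CPM in control islets, 142, 148, 139 and 143 with IL-1β, 113, 112, 101 and 99 with butyrate and 135, 133, 131 and 128 with both. Every library with IL-1β, alone or with butyrate, lay above every library without it. The *Rph3al* log2 fold change was 0.39 (SE 0.047, adjusted p = 3.50e-07) for IL-1β and 0.27 (SE 0.047, adjusted p = 4.12e-05) for both against control, and -0.04 (SE 0.048, adjusted p = 0.571) for butyrate alone. The libraries with both agents lay below all IL-1β libraries without a call (log2 fold change -0.12, SE 0.047, adjusted p = 0.0605). Both calls stood under all 23 alternatives.

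*Rab27b* was rare beside *Rab27a* and measured 2.57, 1.88, 1.77 and 1.88 CPM in control islets, 2.43, 2.09, 2.07 and 2.17 with IL-1β, 1.36, 1.78, 1.41 and 0.989 with butyrate and 0.853, 1.4, 1.01 and 1.49 with both. The libraries with both agents lay below all IL-1β and all control libraries (log2 fold change -0.89, SE 0.20, adjusted p = 0.00152 against IL-1β and -0.77, SE 0.21, adjusted p = 0.00337 against control), and the second call was lost without control replicate 1 (adjusted p = 0.021), replicate 1 of the combination (0.0193) or replicate 3 of the combination (0.014). Butyrate alone was not called (log2 fold change -0.55, SE 0.20, adjusted p = 0.0435). *Rab27a*, the main granule Rab27, fell with butyrate from 275 to 301 CPM to 238 to 253 CPM (log2 fold change -0.23, SE 0.042, adjusted p = 0.000146) and from 287 to 304 CPM with IL-1β to 257 to 270.0 CPM with both (log2 fold change -0.16, SE 0.042, adjusted p = 0.00393). The second of these was lost with upper-quartile scaling (adjusted p = 0.0157) and when only the 2 conditions were fitted (0.0161).

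Among the Rab3 genes, *Rab3d* fell with butyrate from 359 to 368 CPM to 259.7 to 304 CPM (log2 fold change -0.37, SE 0.049, adjusted p = 2.00e-06), and from 300.3 to 344 CPM with IL-1β to 249.6 to 267 CPM with both (log2 fold change -0.30, SE 0.049, adjusted p = 3.06e-05). *Rab3a* was lower with both agents, at 104 to 117 CPM against 139 to 161 CPM in control (log2 fold change -0.43, SE 0.070, adjusted p = 3.00e-05), without a call for either agent alone. *Rab3b* was the exception in direction: it was higher with both agents, at 44.4 to 52.7 CPM against 32.0 to 41.5 CPM (log2 fold change 0.40, SE 0.088, adjusted p = 0.00105), and with butyrate alone at 39.9 to 54.1 CPM (log2 fold change 0.33, SE 0.089, adjusted p = 0.00893). The latter *Rab3b* call was lost under 13 of 23 alternatives, among them the removal of any one of 12 libraries (control 2 to 4, IL-1β 1 to 4, butyrate 1 or 2, or replicates 2 to 4 of the combination, adjusted p up to 0.0319). *Rab3c* was not called, its lowest adjusted p being that for IL-1β (log2 fold change -0.31, SE 0.090, adjusted p = 0.0115).

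Of the priming factors, *Cadps2* stood apart. It encodes CAPS2, a protein that primes dense-core granules, and measured 25.8, 25.4, 28.9 and 27.1 CPM in control islets, 34.7, 33.6, 36.9 and 35 with IL-1β, 12.5, 13.5, 16 and 13.8 with butyrate and 25, 29.8, 28.5 and 29.6 with both. Every butyrate library lay far below every control library, every IL-1β library lay above every control library, and the libraries with both agents overlapped with control. The log2 fold change was 0.39 (SE 0.065, adjusted p = 4.03e-05) for IL-1β, -0.94 (SE 0.072, adjusted p = 1.37e-10) for butyrate, -0.31 (SE 0.065, adjusted p = 0.000499) for butyrate added to IL-1β and 0.07 (SE 0.066, adjusted p = 0.421) for both against control. The first 3 were called, under all 23 alternatives. Butyrate alone left 0.52 of the control level, whereas butyrate on top of IL-1β left 0.805 of the IL-1β level.

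Its paralogue *Cadps*, or CAPS1, was the larger part of the family and moved less: 276, 271, 271 and 257 CPM in control islets, 264, 244, 235 and 228 with IL-1β, 248, 250.5, 249 and 251 with butyrate and 228, 228, 226 and 214 with both. Only both agents against control gave a call (log2 fold change -0.26, SE 0.045, adjusted p = 3.02e-05), with all 4 libraries below all controls. *Cadps2* made up 13.6% ± 0.845 of the summed CAPS level per kb in control islets, 18.6% ± 1.3 with IL-1β, 8.07% ± 0.788 with butyrate and 16.5% ± 1.35 with both (SD, n = 4). *Unc13b*, or Munc13-2, was lower with both agents (log2 fold change -0.20, SE 0.052, adjusted p = 0.00247), a call lost without control replicate 3 (adjusted p = 0.0126) and with library-size scaling (0.106). *Rims2*, which links Rab3 to the release site, fell with butyrate alone (log2 fold change -0.21, SE 0.059, adjusted p = 0.00729), a call lost without control replicate 1, 3 or 4 or butyrate replicate 1 or 3 and under 2 other scalings (up to 0.0432). *Unc13a*, or Munc13-1, was not called.

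*Cplx2*, the complexin of islets, which binds assembled SNAREs and clamps or promotes fusion, was lower when butyrate was added to IL-1β (log2 fold change -0.22, SE 0.052, adjusted p = 0.0018) and with both agents against control (log2 fold change -0.23, SE 0.052, adjusted p = 0.000729), at 299 to 342 CPM against 355 to 407 CPM, the latter call being lost with library-size scaling (adjusted p = 0.0331). The SNARE-recycling pair fell too. *Nsf*, the ATPase, measured 122, 117, 113 and 117 CPM in control islets, 113, 107, 115 and 113 with IL-1β, 92.3, 99.1, 91.1 and 101 with butyrate and 93, 88.6, 89.4 and 89.8 with both. All butyrate libraries lay below all control libraries, and all libraries with both agents below all IL-1β libraries (log2 fold change -0.29, SE 0.044, adjusted p = 1.17e-05 and -0.31, SE 0.044, adjusted p = 4.82e-06). *Napa*, or alpha-SNAP, which loads NSF onto SNARE complexes, fell with IL-1β from 278 to 294 CPM to 242 to 254 CPM (log2 fold change -0.21, SE 0.040, adjusted p = 0.000268) and was lowest with both, at 217 to 235 CPM (log2 fold change -0.33, SE 0.040, adjusted p = 1.79e-07). *Exoc3*, a subunit of the exocyst tether, was lower with butyrate alone (log2 fold change -0.20, SE 0.054, adjusted p = 0.00581), a call lost without control replicate 1 or 3 or butyrate replicate 1, 2 or 3 and with upper-quartile scaling (up to 0.0323).

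The 2 butyrate comparisons, without and with IL-1β, share no libraries and were set against each other. *Stx1a*, *Snap23*, *Syt3*, *Syt12*, *Syt16* and *Esyt3* were raised in both, 6 of 47, where 5.73% of all tested genes were raised in both. *Cadps2*, *Nsf*, *Rab27a*, *Rab3d* and *Syt5* were lowered in both, 5 of 47, where 7.74% of all genes were. No gene was called in opposite directions. A further 6 genes passed only without IL-1β and 8 only with it, but passing in one alone does not show a difference. The shares of all genes were not computed for these counts. The sign was the same for 43 of 47 genes (91.5%, against 78.8% of all genes), and Pearson's r across the 47 genes was 0.89 against 0.74 across all genes, given as a description, since genes within libraries share depth and scaling and are not replicates.

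**Figure D4:**
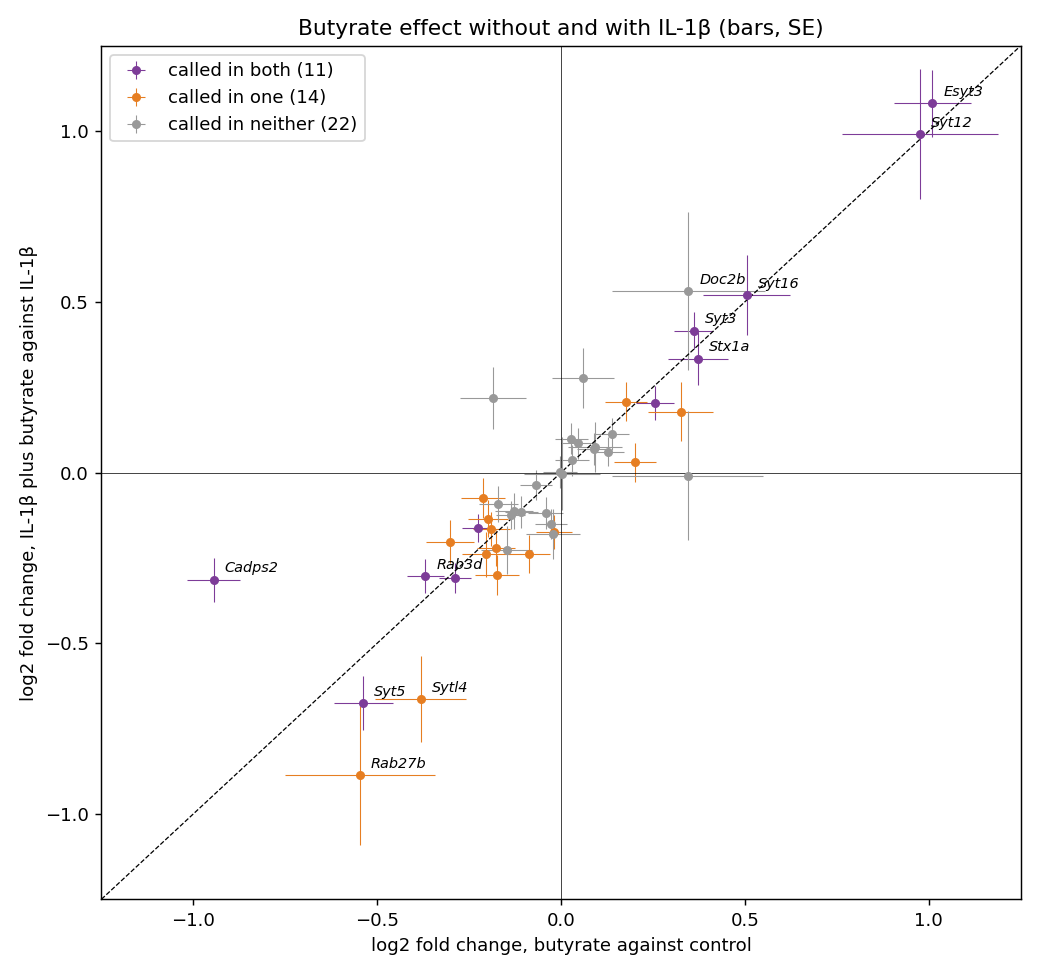
Log2 fold change of 47 exocytosis genes for butyrate against control (horizontal) and for the combination against IL-1β (vertical), with bars of 1 SE and a dashed line of equality. Points lie along the line from *Rab27b* and *Syt5* at the lower left to *Syt12* and *Esyt3* at the upper right, and *Cadps2* lies off it at -0.94 and -0.31.

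The difference between the butyrate effects was tested directly. *Cadps2* was the 1 exocytosis gene called: its butyrate effect was 0.63 higher on the log2 scale with IL-1β than without (SE 0.097, 95% interval 0.43 to 0.83, adjusted p = 0.00121), where 18 of all 18587 genes (0.0968%) were called, 0.043% in this direction. The call stood under all 22 alternatives that could be fitted, with values from 0.59 to 0.70. For the other 46 genes the difference ran from -0.35 to 0.40 with no call, at a lowest adjusted p of 0.300 for *Rab3c* (0.40, SE 0.13). For 40 of the 46 the 95% interval lay within 0.5 on either side of 0, and the median half-width was 0.16. With 4 libraries per condition, an uncalled gene may still differ by an amount inside its interval. The smallest detectable difference was not computed.

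**Figure D5:**
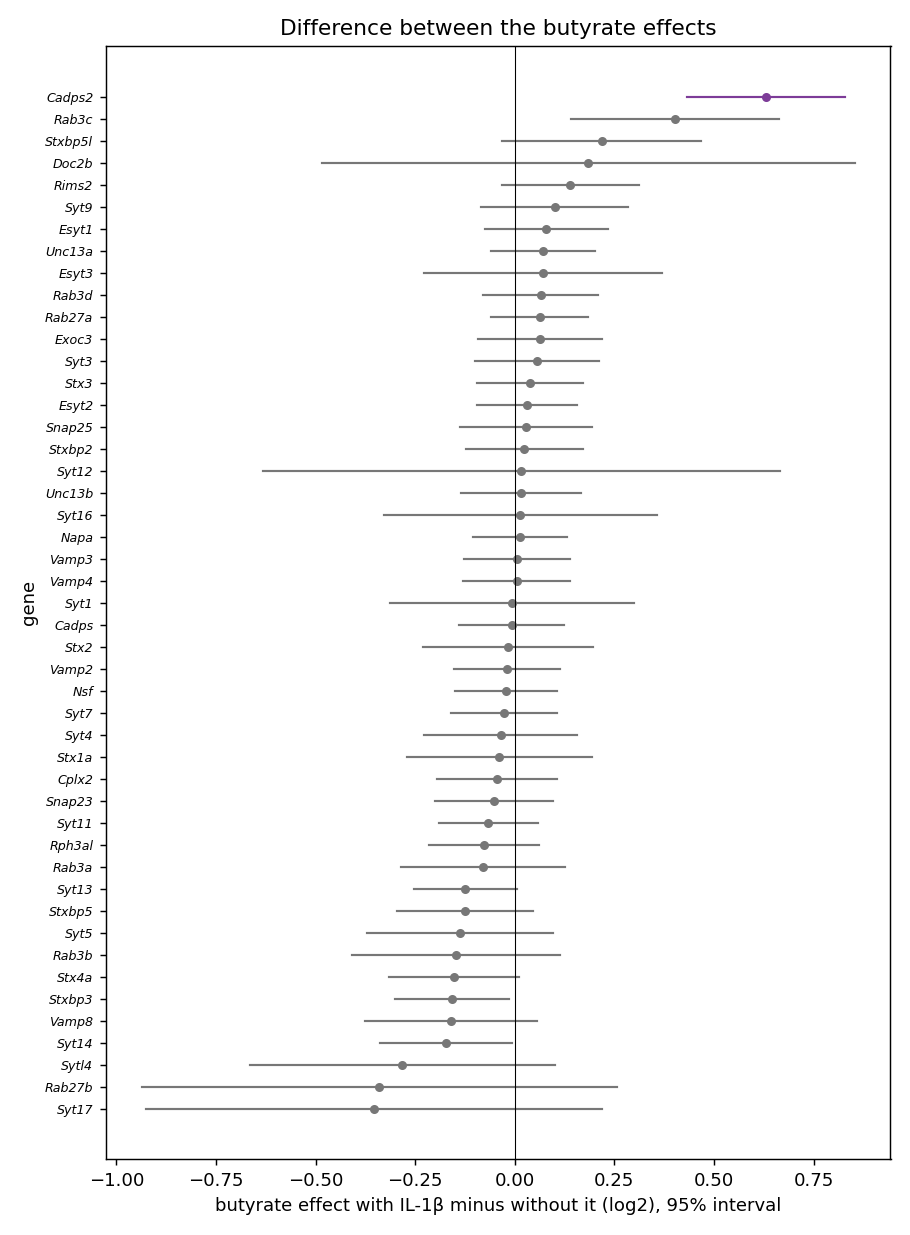
Difference between the butyrate effect with IL-1β and without it (log2, points) with its 95% interval (lines) for 47 exocytosis genes. The interval of *Cadps2* (0.43 to 0.83, purple) lies clear of 0, and 3 further intervals (*Rab3c*, *Stxbp3*, *Syt14*) exclude 0 without passing the adjustment over all genes.

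IL-1β against control and both agents against control share the control libraries, so their values are only set side by side. *Syt11* had 0.65 and 0.71 and *Rph3al* 0.39 and 0.27, *Esyt3*, *Syt12* and *Stx1a* had a larger one with both agents (0.33 and 1.42, 0.52 and 1.51, 0.39 and 0.73), and *Sytl4* went from -0.54 to -1.20. *Cadps2*, *Syt9* and *Stx4a*, all called upward with IL-1β, had values of 0.07, 0.09 and 0.01 with both agents against control and were not called there.

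Of 76 further genes of regulated exocytosis, 72 were tested. With IL-1β 9 rose and 10 fell (26.4% called, against 17.8% of all tested genes). With butyrate 12 rose and 6 fell (25.0%, against 19.9%). With butyrate added to IL-1β 15 rose and 6 fell (29.2%, against 19.5%). With both against control 19 rose and 11 fell (41.7%, against 30.6%). For the difference between the butyrate effects 0 were called (against 0.0968% of all). The largest change was that of *Stx11*, a syntaxin of leukocyte granules. It went from 0.416 ± 0.134 CPM in control islets to 7.79 ± 1.27 CPM with IL-1β (SD, n = 4, log2 fold change 4.21, adjusted p = 1.61e-14). The 5 macrophage and leukocyte markers were also higher in these libraries. With both agents *Stx11* was at 6.81 ± 1.59 CPM (log2 fold change -0.18 against IL-1β, adjusted p = 0.36). The part of the cell makeup in the *Stx11* values was not tested. *Sv2a* and *Sv2b*, related glycoproteins of secretory vesicles, moved in opposite directions with butyrate. *Sv2a* went from 122 ± 6.09 to 207 ± 9.16 CPM (log2 fold change 0.76, adjusted p = 3.10e-12) and *Sv2b* from 32.4 ± 1.81 to 15.6 ± 2.99 CPM (-1.05, adjusted p = 6.34e-10), and with IL-1β present butyrate gave 0.77 and -1.25 (adjusted p = 2.99e-12 and 2.99e-11). Of the rest, *Ppfia4*, a liprin of release sites, and *Rab3il1*, an exchange factor for Rab3, rose with IL-1β from 0.803 ± 0.147 to 3.17 ± 0.939 CPM (1.99, adjusted p = 1.28e-07) and from 1.04 ± 0.123 to 2.81 ± 0.433 CPM (1.43, adjusted p = 1.14e-06). *Vamp5*, a VAMP of muscle cells, was higher with both agents, at 2.45 ± 0.348 CPM, than with IL-1β, at 1.15 ± 0.216 CPM (1.06, adjusted p = 4.52e-05).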

How the data were processed

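Total RNA of mouse islets was sequenced single-end in 16 libraries. Per the labels and the study's methods the authors demultiplexed reads with bcl2fastq 2.19.1, checked them with FastQC 0.11.7 and MultiQC 1.7 and mapped them with STAR 2.5.3a to GRCm38 (mm10), and the deposited values are raw read counts per Ensembl gene. The annotation release and the strand setting of counting are not given in the sources used here, so reads of genes that overlap on opposite strands, as 11 of the 48 exocytosis genes do with another gene, cannot be told apart. The authors compared conditions with DESeq2 at an adjusted p under 0.01.

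Each count column was matched to its sample by the label of the library, and all 52636 rows were read, of which 52489 have identifiers in GENCODE M21, the source of symbols and merged exon lengths. edgeR 4.0.16 (R 4.3.3) with TMM scaling, the default filter on low counts by condition and a robust quasi-likelihood fit over 4 conditions gave 5 contrasts over 18587 genes, with Benjamini-Hochberg adjustment over all of them and calls under 0.01. The SE was the log2 fold change over the root of its F value, and intervals are 95%. CPM values are counts over TMM-scaled library sizes, and CPM per kb divides these by the merged exon length. The fits were tested on simulated data. The p-values rest on 4 libraries per condition, and libraries of one condition differed by more than counting error (1.72 to 13.5 per gene in a chi-square test whose value would be 1 for counting error alone).

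The exocytosis genes, the other lists and the rule for the 15 genes plotted singly were chosen with earlier results of these data known. That rule took *Stx1a*, *Snap25*, *Vamp2*, *Syt7* and *Syt9* by name and, for each comparison, the 6 called genes with the largest absolute log2 fold change. Of 76 other pathway genes it took 3 per comparison in the same way among those with an average log2 CPM of at least 1, of which 1 gene is not reported here. Library values of *Doc2b*, *Cadps* and *Nsf* were added after their values were seen. Alternatives were other scalings (RLE size factors, upper quartile, library size), no filter on low counts, DESeq2 1.42.0, the replicate number as a block, only the conditions compared, and each library left out in turn. Promoter windows came from RefSeq.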

Additional observations from a re-analysis of the deposited data

Results flagged for a closer look

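The butyrate effect on *Cadps2* differed between islets with and without IL-1β, by 0.63 on the log2 scale, in the direct test of that difference described above.

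In 8 of 192 groups of 4 libraries (48 exocytosis genes in 4 conditions), one library stood apart from the other 3 by Dixon's criterion, where chance alone gives about 1 group in 20. *Syt1* was at 5.38 CPM in IL-1β replicate 4 and at 6.09 to 6.20 CPM in the other 3. *Syt16* was at 4.49 CPM in butyrate replicate 3 against 5.60 to 5.68 CPM. *Rab27b*, a gene of few counts, was at 2.57 CPM in control replicate 1 against 1.77 to 1.88 CPM. *Unc13b* was at 79.1 CPM in IL-1β replicate 2 against 89.6 to 90.9 CPM, and *Rims2* in the same library was at 39.7 CPM against 45.6 to 46.4 CPM. *Rims2* was also at 43.9 CPM in replicate 1 of the combination against 41.5 to 41.9 CPM. In replicate 4 of the combination *Rab3d* was at 249.6 CPM against 266 to 267 CPM and *Cadps* at 214 CPM against 226 to 228 CPM.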

How the results depend on the processing

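Of 456 recomputed counts, 442 stayed within 1.5 times the count reported. The exocytosis genes lowered by IL-1β (4) became 11 with upper-quartile scaling and 2 with library size alone, and 1 to 7 with a library left out. Those raised by butyrate (8) ranged from 5 to 8 and those raised by butyrate added to IL-1β (7) from 4 to 7 with a library left out. Over all tested genes, the 1224 lowered by IL-1β became 1800 with upper-quartile scaling and 708 with library size alone. For the other pathway genes with IL-1β, library size alone gave 14 raised and 6 lowered (9 and 10 reported). The cause was not tested. Of 72 called results for single exocytosis genes, 51 kept the call under all alternatives and 21 lost it under at least 1, and none changed direction. Of 39 uncalled results of the genes plotted singly, 6 gained a call under at least 1.

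Libraries with the same replicate number deviated together only in part: 24 such pairs had correlations of 0.0535 to 0.397, 17 of them over 0.1, against -0.293 to 0.17 in 72 other pairs, and 13 of 16 libraries correlated best with one of their own number. When each library was set against each other condition, the highest correlation was with the same number in 40 of 48 cases. The labels do not say what a number marks, so it was not taken as a pairing in the results above. The study calls the replicates independent experiments. In the column headers the sample index runs through all 4 conditions of a number before the next number. If a number marks an experiment, the tests above leave out that pairing, and their SE can be too wide. Genes left uncalled there can therefore be called when the number is used as a block. With the number as a replicate block, 9 exocytosis genes rose and 10 fell with IL-1β, 11 and 16 with butyrate, 10 and 17 with butyrate added to IL-1β, and 11 and 16 with both, and 10 other pathway genes fell with butyrate. Over all 5 comparisons the block added 29 calls of exocytosis genes and ended 0. Counts over all genes with the block are not given here, so the rise is not read as particular to exocytosis genes. Among those added were *Sytl4* (adjusted p = 7.68e-09), *Snap25* (0.000761) and *Syt7* (0.00469) for butyrate, *Syt9* (0.00861) and *Stxbp5l* (0.00846) for butyrate added to IL-1β, and *Doc2b* for IL-1β (log2 fold change -0.71, SE 0.091, adjusted p = 4.04e-08), butyrate (0.35, 0.000495) and butyrate added to IL-1β (0.52, 1.79e-05). With 4 libraries per condition, an uncalled gene may still have changed by an amount inside its 95% interval. Genes of few counts (*Syt12*, *Rab27b*, *Syt17*, *Cplx1*) are the least certain.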
